A study of Mus musculus with 4 samples.

Results

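The 6 mature arms of miR-143, miR-145a and miR-378a, microRNAs known from fat cell differentiation, were followed in exosomes that differentiating 3T3-L1 adipocytes released into their medium. They were mmu-miR-143-3p, mmu-miR-143-5p, mmu-miR-145a-5p, mmu-miR-145a-3p, mmu-miR-378a-3p and mmu-miR-378a-5p (the prefix, for mouse, is left out from here on), picked by name from the 1881 mouse miRNAs of the array. Only 2 of them came above the detection threshold. miR-143-3p was detected at D4, D12 and D16 and miR-378a-3p at D12 and D16, while neither was detected at D0. Relative to its D0 limit, miR-378a-3p stood at least 2.09-fold higher by D12 on the unscaled signals, with a technical error of 0.346. On the same signals the median D12 over D0 ratio of the 283 miRNAs detected on all 4 arrays was 1.99. Under the 4 scalings between arrays the miR-378a-3p bound was 0.636 to 1.22. miR-143-3p did not exceed its own limit, which sums 2 probes where 1 gave the signal.

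3T3-L1 is an established line of mouse preadipocytes, that is, cells able to turn into fat cells in culture. The D0 medium came from cells kept in growth medium, low-glucose DMEM with 10% exosome-depleted serum. For D4, D12 and D16 the cells had first received high-glucose DMEM with 10% exosome-depleted serum, insulin (10 μg/ml), dexamethasone (6.4 nM) and 1-methyl-3-isobutylxanthine (0.5 mM) for 2 days, and then the same base medium with insulin alone. All samples were therefore from 1 cell line, and D0 differed from the other days in its medium as well as in its stage, which cannot be told apart here. Exosome fractions were pelleted from the medium by ultracentrifugation. Each day was read on 1 single-colour array from mixed material (2 independent experiments per the study's methods, 3 per the labels), so no difference between days could be checked in replicates, and the error given with a value is the technical error within its array.

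A microRNA is cut from a hairpin whose arms, 5p and 3p, can each yield a mature strand, and the more abundant arm is called the guide. The guides are miR-143-3p, miR-145a-5p and miR-378a-3p. miR-143 and miR-145 are made from a common primary transcript, are abundant in smooth muscle and other mesenchymal cells, and have been linked to adipocyte differentiation, miR-143 as a promoter of it. miR-378a is encoded in an intron of Ppargc1b, the gene of a transcriptional coactivator of mitochondrial and lipid metabolism, and it rises in adipogenesis. In the RefSeq gene table (GRCm38.p6), Mir143 and Mir145a both lay within the noncoding gene Carmn and Mir378a within Ppargc1b.

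The miR-378 family has further members on other chromosomes, and their mature sequences are shown because the array carried probes for each, which may share sequence with those of miR-378a-3p. The sequences are from RefSeq (GRCm38.p6), with the seed (bases 2 to 8, the bases that pair with targets) in capitals.
miR-378b: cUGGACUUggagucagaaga
miR-378c: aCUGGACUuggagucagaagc
miR-378d: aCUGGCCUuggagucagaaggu
miR-378b lies at chr11:88352839-88352858 on the plus strand and overlaps Msi2, miR-378c at chr14:46954905-46954925 on the minus strand and overlaps Samd4 and Gm52120, and miR-378d at chr10:126710355-126710376 on the minus strand with no overlapping gene. All 3 shared the run cuuggagucagaag of 14 bases, and miR-378b and miR-378c shared 19. Their seeds differed from one another, that of miR-378b being offset by 1 base from that of miR-378c.

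Each array held 56430 spots, and the deposited total signal of a miRNA is the sum over its probes whose signal exceeded 3 times their error. By this call 329, 426, 406 and 380 of the 1881 miRNAs were detected at D0, D4, D12 and D16, or 17.5%, 22.6%, 21.6% and 20.2%, beside 0, 1, 2 and 2 of the 6 members. The signals summed over all miRNAs were 12716, 39129, 30966 and 21873 in the same order, and no scaling between arrays was applied in the values below. The D0 array was uneven: its spots of 1 probe varied by 21.1% (median coefficient of variation) against 7.19% to 8.07% on the other arrays, and the left part of it read 0.701 times the right (median over 189 probes), against 1 to 1.01 elsewhere. The D0 spike-in signal was also lower, by 1.82-, 1.72- and 1.27-fold, than at D4, D12 and D16. Fibroblast and mesenchymal markers were detected on all days (6 of 6) and striated muscle markers on none (0 of 6). Red blood cell markers went from 1 of 3 at D0 to 3 of 3 later, with a summed signal of 9.40, 468, 2524 and 1649, and their part in the results was not tested.

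miR-143-3p, the guide of its hairpin, was not detected at D0, where its limit (3 times the summed error of both probes) was 4.92. On D4, D12 and D16 its total signal was 3.99 ± 1.25, 4.91 ± 1.20 and 4.34 ± 0.979. The 3 later days lay within 1 error of one another and none exceeded the D0 limit. The D12 signal equalled that limit (ratio 1), and the ratios at D4 and D16 were 0.813 and 0.883, so against this limit no fold can be stated. The limit sums the errors of both probes, while 1 probe gave the later signals. Against 3 times the D0 error of that probe alone, the unscaled D4, D12 and D16 signals stood at 1.62, 2 and 1.76. This floor was chosen after the values were seen, from the probe that passed on the later days. It was not tried with any scaling between arrays, so no fold is stated from it. Spot means were 7.51, 9.39 and 10.4 times a floor of 3 standard errors over the D0 spots. Those spots are technical repeats of 1 array, so these 3 values are not bounds. It was 1 of the 109 miRNAs gained at D4 among the 1552 not detected at D0, 7.02% of them. It stayed detected at D12 (7.02% gained) and D16 (5.86% gained).

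All of the detected miR-143-3p signal came from 1 of its 2 probes, A_54_P2405. Its signal was 0.594, 3.19, 4.08 and 4.43 times its error at D0, D4, D12 and D16. The other probe, A_54_P2404, moved the same way and stayed below the threshold, at -0.179, 1.77, 2.21 and 2.42 errors. Summed over both probes irrespective of the threshold, the D0 signal was 0.34 ± 1.16, and D4, D12 and D16 exceeded it by 5.80 ± 2.09, 7.06 ± 2.01 and 6.18 ± 1.77. These differences were 2.77, 3.51 and 3.50 times their technical error. Among miRNAs not detected at D0, 3.87%, 4.06% and 3.41% had a difference above 3 errors on these days.

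On A_54_P2405, the probe that passed on the later days, single spots of the D0 array lay below those of the later arrays. The 15 spots of A_54_P2405 had a lowest, median and highest signal of -0.571, 2.07 and 6.27 at D0. The D4 spots lay at 10.3, 13.4 and 19.9, those of D12 at 15.8, 17.4 and 24.1, and those of D16 at 13.8, 19.2 and 26.7. The D0 spots thus did not overlap those of any later day, whereas the later days overlapped one another. None of the D0 spots and all 15 on each later day were above the 95th percentile of the negative-control spots of their array. For A_54_P2404 the D4 spots (1.64 to 13.5) overlapped those of D0 (-5.18 to 4.08), and 7 of its 15 D4 spots were above that percentile. Its D12 and D16 spots began at 6.04 and 7.2. The error given by the software corresponded to 3.86 to 4.73 in the units of 1 spot for the members, near the additive error of a single spot (3.86 to 4.30), so it did not shrink with the 15 spots of a probe. Spots of 1 array are technical repeats and not replicates of a day.

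**Figure D1:**
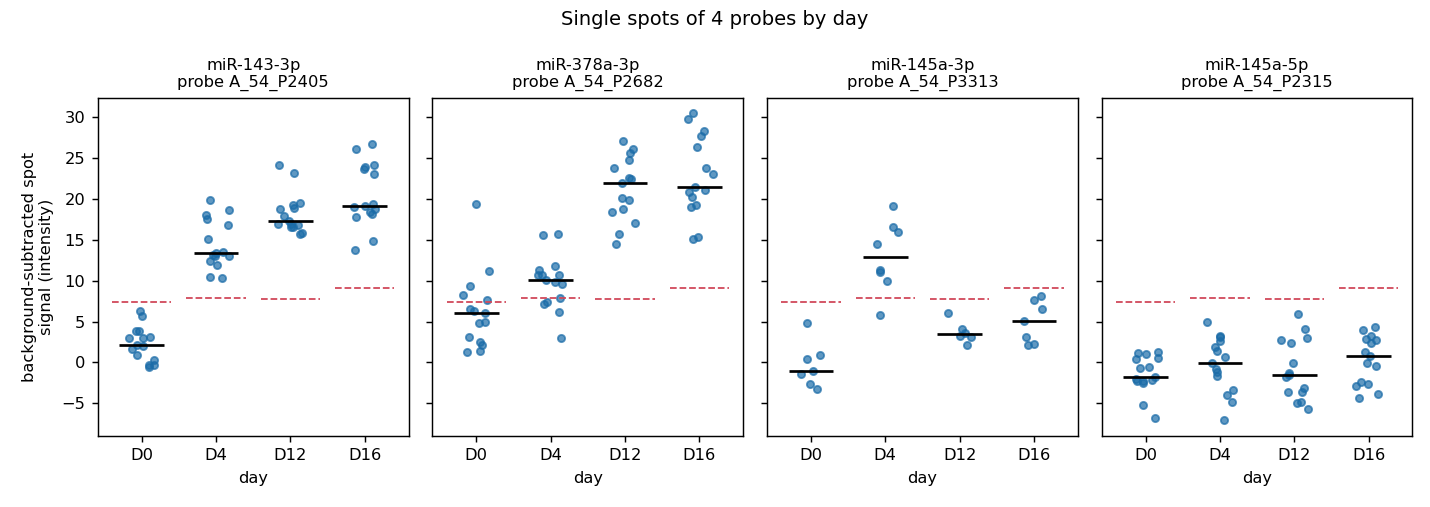
Background-subtracted signal (intensity, vertical axis) of each spot by day for 4 probes, with the median as a black bar and the 95th percentile of the negative controls of that array as a dashed line. For the miR-143-3p probe shown, the D0 spots end at 6.27, below all those of later days. The other miR-143-3p probe, not shown, has D0 spots that overlap those of D4. The miR-145a-3p spots are highest at D4, where the median is 12.9.

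Counted over all members, 3 of their 14 probes had every spot above the highest D0 spot at D4, and the same number did at D12 and at D16. Over all probes on the array the shares were 10.7%, 8.43% and 7.68%, and over the probes of miRNAs not detected at D0 it was 3.41%, 3.35% and 3.08%. At D4 these were A_54_P2405 of miR-143-3p and a pair of miR-145a-3p probes. At D12 and D16 they were both miR-143-3p probes and A_54_P2681 of miR-378a-3p.

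Between the later days the miR-143-3p ratios were near 1 on the unscaled signals. Its D12 signal was 1.23 ± 0.49 times that at D4 (60th highest of 374 miRNAs detected on both days, where the median ratio was 0.865 and 70.6% fell below 1). Its D16 signal was 0.883 ± 0.294 times that at D12 (44th of 371, median 0.703, with 95.7% below 1). Neither ratio differed from 1 by more than its technical error. The ratio of D12 to D4 was 1.3 with spike-in scaling, 1.57 and 1.59 with 90th and 75th percentile scaling, and 3.46 with quantile normalization. The ratio of D16 to D12 was above 1, at 1.1 to 1.65, when the arrays were scaled to one another, when the effective feature size (a spot-area factor that the software estimated for D4 and D12 and left at its default for D0 and D16) was removed, or when spot means were used.

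The passenger arm miR-143-5p was not detected on any day. Its probes summed to 0.311, 0.131, 0.913 and 0.833 from D0 to D16, against limits of 4.92, 7.13, 6.61 and 5.26. The days did not differ by as much as 1 technical error.

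miR-145a-5p, the guide made from the same primary transcript as miR-143-3p, was not detected at any time. Its probe sums were below 0 throughout, at -1.22, -1.14, -0.776 and -0.518 at D0, D4, D12 and D16. On these arrays 3 times the summed error of its probes was 4.91, 7.12, 6.58 and 5.25. miR-145b, a relative from the numbered miR-145 family, was not detected either.

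The passenger arm miR-145a-3p was not called detected, but its unscaled probe sum was highest at D4, the array with the highest summed signal. Its 4 probes summed to -0.01 ± 0.82 on D0 and 4.51 ± 1.22 on D4, then to 1.96 ± 1.11 and 1.63 ± 0.88 on D12 and D16. The excess at D4 over D0 was 4.52 ± 1.47, or 3.07 technical errors. An excess above 3 errors was held by 3.87% of the miRNAs not detected at D0. No single probe passed 3 errors at D4, the highest being A_54_P3313 at 2.89 and A_54_P3314 at 2.50. The other probes, A_54_P3315 and A_54_P3316, stood at 0.921 and 0.782. The 8 spots of A_54_P3313 lay between 5.77 and 19.2 at D4, above the D0 spots (-3.27 to 4.82), and those of D12 (2.17 to 6.10) overlapped both. The D12 sum fell by 2.55 ± 1.65 from D4, within 2 errors.

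**Figure D2:**
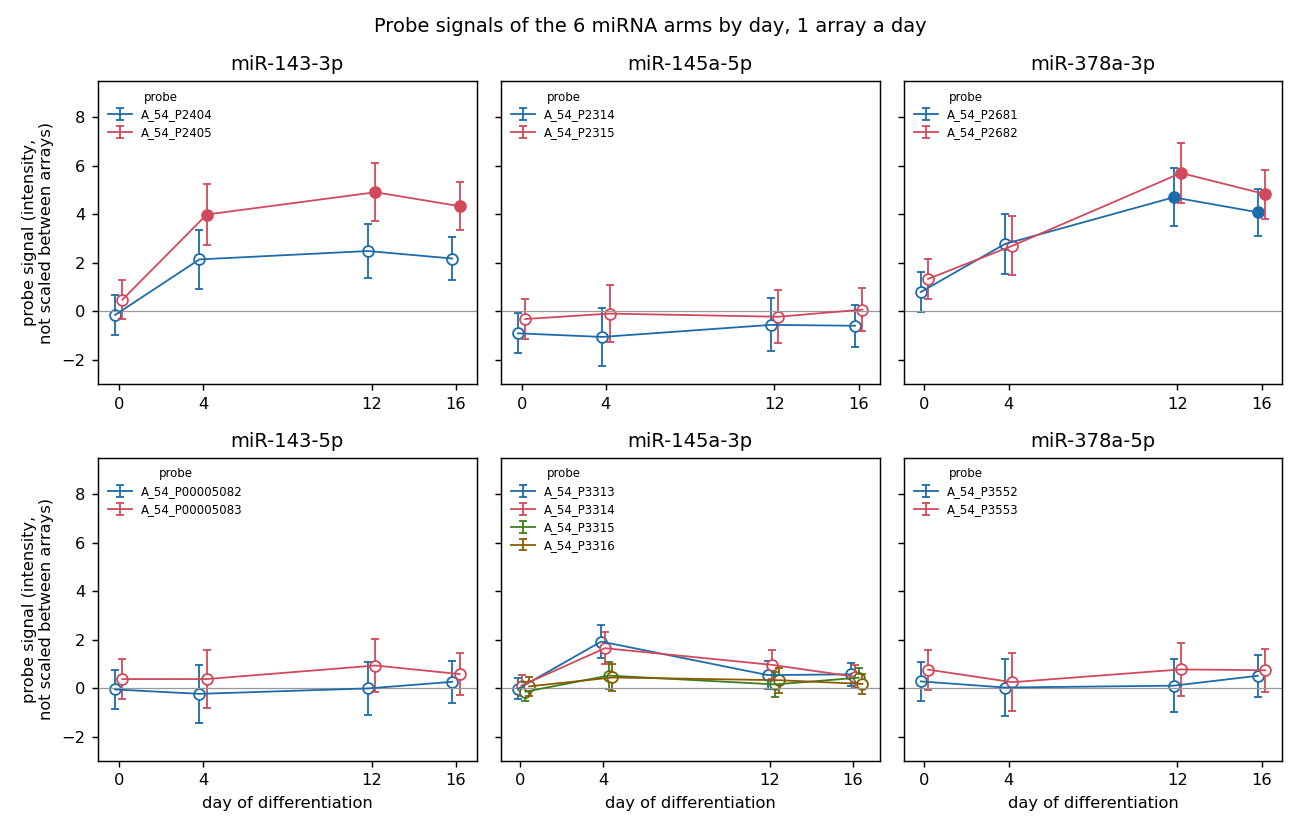
Probe signal (intensity, not scaled between arrays, vertical axis) against day of differentiation for each probe of the 6 arms. Bars are the technical error of the probe, filled circles are probes above 3 times their error and open circles are probes below it. Filled circles occur only for A_54_P2405 of miR-143-3p (D4 to D16) and for both miR-378a-3p probes (D12 and D16).

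miR-378a-3p, the guide encoded in the Ppargc1b intron, was called detected from D12 on. It was not called at D0 (limit 4.97) or D4 (limit 7.32), and then reached 10.4 ± 1.72 (D12) and 8.92 ± 1.39 (D16). Both of its probes were detected on the last 2 days. Over the D0 limit, D12 and D16 stood at least 2.09-fold and 1.79-fold higher, and over the D4 limit at least 1.42-fold and 1.22-fold higher. The technical errors of the first pair were 0.346 and 0.28, so D12 passed 2-fold by less than its error. The D12 bound made it the sole member past 2-fold, 1 of 2 detected members, where 44.8% of the 406 miRNAs detected at D12 had a ratio or bound above 2 (36.7% of those gained). The bound was below 2 under each of the 4 scalings between arrays (0.636 to 1.22) and with the effective feature size removed (1.65). No member passed 2-fold at D4 (55.9% of all detected and 37.6% of those gained) or D16 (30.8% and 29.7%). A ratio below 0.5 was held by 0.315%, 3.37% and 9.34% of the miRNAs detected both at D0 and at D4, D12 or D16, and could be given for none of the members.

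The sums of the 2 miR-378a-3p probes irrespective of the threshold were 2.14 ± 1.17 and 5.49 ± 1.73 on D0 and D4, against 10.4 ± 1.72 and 8.92 ± 1.39 on D12 and D16. The increase over D0 was 3.97 technical errors at D12 and 3.72 at D16, but 1.61 at D4. From D4 to D12 it was 4.92 ± 2.44, or 2.02 errors. On the unscaled sums D4 was thus intermediate, and was separated from neither side by 3 errors. D4 was also the array with the highest summed signal, and the order of these sums under scaling was not tested. The D4 sum itself was 3.18 times its error, against 3.53 for miR-143-3p and 3.69 for miR-145a-3p, which was not called. The later detection call of miR-378a-3p thus rests on its probes being called singly.

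Unscaled, both probes gave this order. A_54_P2681 gave 0.969, 2.28, 3.93 and 4.23 times its error at D0, D4, D12 and D16, and A_54_P2682 gave 1.61, 2.22, 4.6 and 4.82. The median spot of A_54_P2681 was 3.50, 9.85, 17.1 and 19.6 on these days. Its D12 spots (11.5 to 25) lay above its D0 spots (-2.20 to 10.1). For A_54_P2682, 1 D0 spot reached 19.3, so that its D0 spots overlapped those of D12 (14.4 to 27.1) and D16 (15.1 to 30.5). By the separate flag for spots well above background, 1, 0, 10 and 15 of the 30 miR-378a-3p spots passed on the 4 days, against 0, 0, 2 and 6 for miR-143-3p.

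From D12 to D16 the miR-378a-3p ratio was 0.857 ± 0.195 (50th of 371), which did not differ from 1 by more than its technical error. It was above 1, at 1.08 to 1.25, when the arrays were scaled to one another, when the effective feature size was removed or when spot means were used. The change of miR-143-3p relative to miR-378a-3p, which no single scaling factor per array can alter, was 1.03 ± 0.416, so the detected guides were not told apart in their late course. miR-378a-5p, the passenger arm, was not detected on any day. Its probe sums were 1.03, 0.263, 0.867 and 1.24 at D0, D4, D12 and D16, with limits of 4.93, 7.12, 6.60 and 5.27.

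The related miR-378b and miR-378d appeared on the same days as miR-378a-3p, and miR-378c was not detected. miR-378b had a signal of 7.31 ± 1.32 at D12 and 5.69 ± 1.05 at D16, each from 1 of its 2 probes, and the D12 signal was at least 1.49-fold its D0 limit. miR-378d had a signal of 4.54 ± 1.19 at D12 and 4.25 ± 0.974 at D16, also from 1 of 2 probes. The probe sums of miR-378c stayed between -0.562 and 0.120, although it shares 19 bases in a row with miR-378b and 14 with miR-378d. Whether RNA of one form was read by probes of another was not tested.

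**Figure D3:**
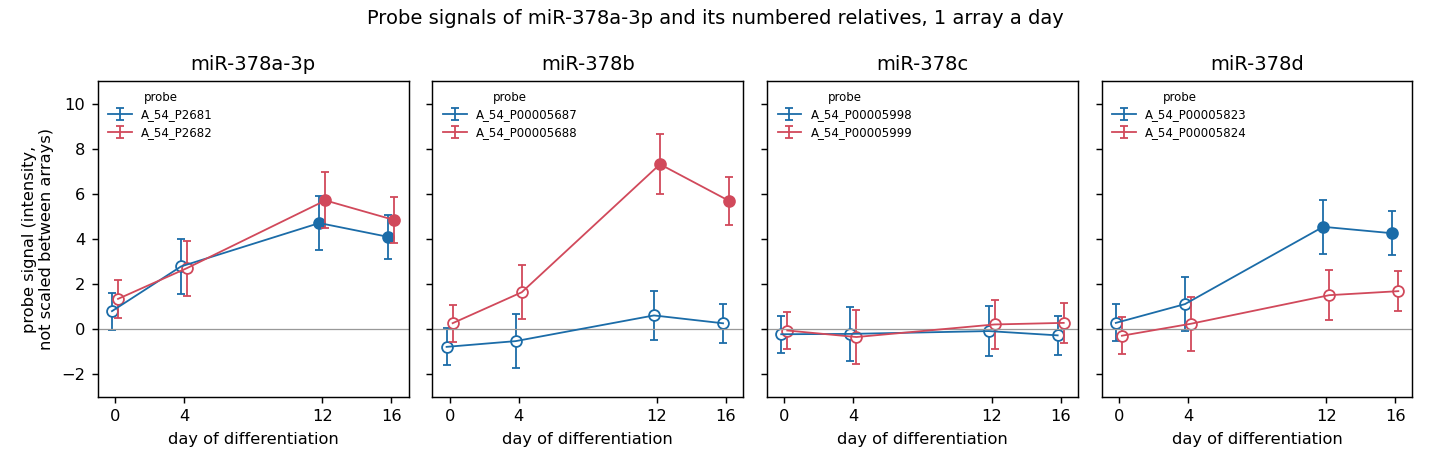
Probe signal (intensity, not scaled between arrays, vertical axis) against day for miR-378a-3p, miR-378b, miR-378c and miR-378d, with the technical error as bars and filled circles for probes above 3 times their error. Both miR-378a-3p probes, but only 1 of the 2 probes of miR-378b and of miR-378d, pass at D12 and D16, and no miR-378c probe does.

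Detection at D12 and D16 alone was shown by 18 of the 1881 miRNAs (0.957%), 3 of which were these miR-378 forms. Others of the 18 were miR-148a-3p (at least 5.23-fold at D12 over D0), of the list described as rising in adipogenesis, and miR-652-5p (at least 2.26-fold). The set also held miR-142a-3p (7.36 at D12 and 5.30 at D16) and miR-122-5p, markers of leukocytes and liver. Summed signal of the 3 leukocyte markers was 0, 16.9, 76.9 and 52.9 on the 4 days. Most of it was miR-223-3p, which was detected from D4 and so lay outside this set, and miR-150-5p was detected on no day. The part of leukocyte and liver markers in the miR-378a-3p course was not tested. Detection at D4, D12 and D16 but not at D0, the pattern of miR-143-3p, was shown by 67 miRNAs (3.56%). The endothelial marker miR-126a-3p was 1 of them, with 13.4, 54.0 and 59.9 on those days, while the other, miR-126a-5p, was detected on no day. The part of miR-126a-3p in the miR-143-3p course was not tested. No detection at all was shown by 1414 miRNAs (75.2%), 4 of the members among them.

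No member was detected on all 4 arrays, so likeness over the whole course could not be measured. Over D4, D12 and D16, a measure chosen after the values were seen, the log2 signals of miR-143-3p were nearest to those of miR-30c-5p (distance 0.138 after subtraction of each mean), miR-10b-5p (0.153) and miR-185-5p (0.171), among 66 others of the same pattern. With technical errors of 0.979 to 1.25 on miR-143-3p signals of 3.99 to 4.91, the order of these neighbours is not resolved. miR-30c-5p is itself described as promoting adipogenesis. On these days its signal was 6.10, 7.61 and 5.94.

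The members were then set beside other miRNAs of fat cell differentiation. Of 18 described as rising, 9, 15, 17 and 15 were detected at D0, D4, D12 and D16, beside 0, 1, 2 and 2 of the 6 members. The list names 1 arm of each miRNA and the members are both arms of each hairpin, so these shares are not like for like. Over the 9 also detected at D0, the median ratios to D0 were 11.6, 13.9 and 10.1 on the later days, against 2.47, 1.91 and 1.32 over all miRNAs detected on both days. The lowest D12 ratio among them was that of miR-21a-5p (2.47 ± 0.303) and the highest that of miR-26b-5p (22.6 ± 7.4). Of 14 described as falling or as opposing differentiation, 7, 12, 10 and 9 were detected, with median ratios of 6.32, 6.61 and 5.21 over 7. The D12 ratios of these 7 ran from 3.44 ± 0.463 for miR-27a-3p to 11.7 ± 1.39 for let-7a-5p. Both lists were written from general knowledge, but with the study and earlier results of these data known. The study lists several of their miRNAs as upregulated on these arrays, so the medians are no independent test. miR-125b-5p, 1 of the 7, is named as pro-adipogenic in the study. The medians of both lists were thus above 1, and above those of all miRNAs, on the unscaled signals.

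The values over D0 depended on the scaling and on how D0 was set. The D12 bound of miR-378a-3p was 1.22 after scaling to the spike-ins, 0.902 and 0.636 after scaling to the 90th and 75th percentile, and 0.853 after quantile normalization. On the same scales the value of miR-143-3p was 0.581, 0.431, 0.304 and 0.368, below 1 throughout. Spot means gave a ratio of 3.85 for miR-378a-3p, whose D0 mean (5.04 ± 0.759 as standard error over spots) was above 3 standard errors. The D0 mean of miR-143-3p (0.803 ± 0.495) was not, and its D12 mean was 9.39 times 3 of those standard errors. Within the right part of the arrays the values were 2.78, again a ratio of measured means, and 7.82. There the miR-143-3p D0 mean was 1.98 ± 0.671, near the floor of 3 standard errors. Neither 9.39 nor 7.82 is therefore a bound. The median of all 283 miRNAs detected on every array moved from 1.99 unscaled to 1.16, 0.860, 0.606 and 0.828 under the same 4 scalings.

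**Figure D4:**
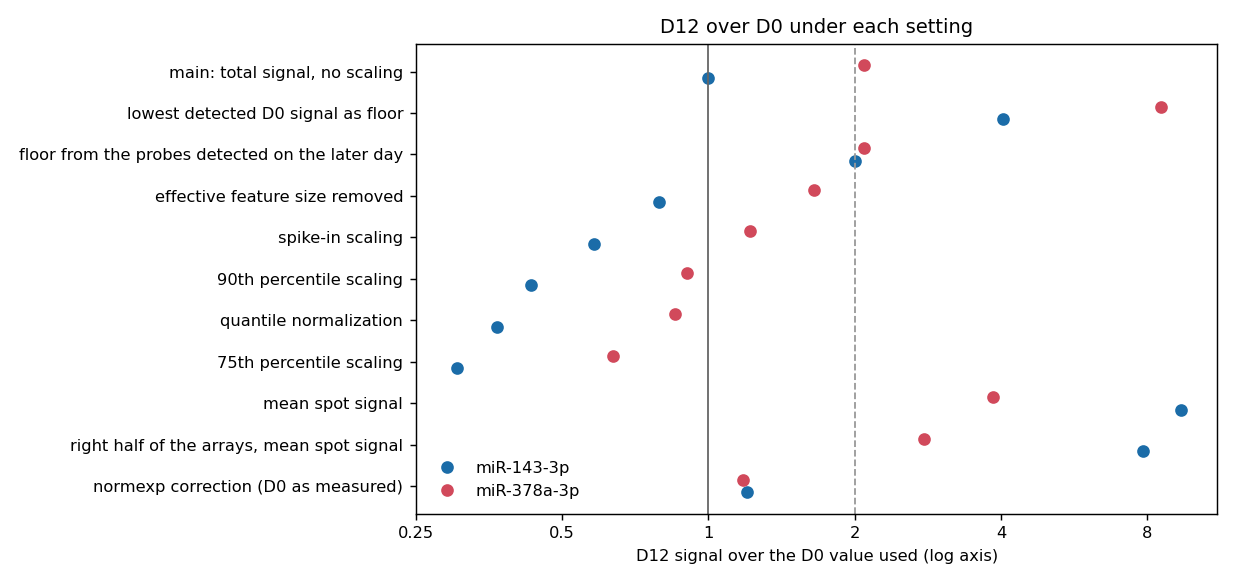
D12 signal over the D0 value that each setting uses (log axis) for miR-143-3p and miR-378a-3p, where the solid line marks 1 and the dashed line 2. Normexp correction takes D0 as measured, with an offset of 50 that holds its ratios near 1. The spot-mean settings also take D0 as measured for miR-378a-3p. For miR-143-3p they divide by 3 standard errors over the D0 spots, which gives no bound. The lowest detected D0 signal lies under the miR-378a-3p probe sum (2.14), so that the miR-378a-3p value there is no bound. The values run from 0.304 to 9.39 for miR-143-3p and from 0.636 to 8.55 for miR-378a-3p.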

How the data were processed

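Exosomal RNA of 3T3-L1 medium was labelled with Cy3 and hybridised to a SurePrint G3 mouse miRNA array, with 1 array per day, grouped by the labelled culture period. The deposited scanner files hold spot, probe and total gene signals as intensity, background-subtracted by the authors with Agilent Feature Extraction (11.0.1.1 per the file headers, 11.0 per the labels). A miRNA with no probe above 3 errors is listed at 0.1. Total signals also carry the estimated feature size (0.6 at D0 and D16, 0.7795 at D4, 0.7596 at D12). The summing rule was tested on the files. The array's own genome build was not used here.

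Signals were compared without scaling between arrays (the study's methods state none), with pandas 2.3.3 and numpy 2.4.6. The study's published ratios differ from these: those of let-7a-5p and miR-26b-5p at D12 are lower than the unscaled 11.7 and 22.6. miR-21a-5p (2.47 here) is not among the miRNAs it lists as past 2-fold. Unscaled ratios and shares past 2-fold are therefore not those of the study. A member not detected at D0 was taken there at 3 times its summed probe error, giving a lower bound, and 2 or 0.5 was the fold threshold. Spot values leave out spots flagged as outliers. Alternatives were scaling to the 75th or 90th percentile or spike-ins, quantile normalization, spot means, the right part of the arrays, normexp (limma 3.58.1 in R 4.3.3, offset 50), other floors and detection rules. The effective feature size, the floor from detected probes and the alternatives for ratios between later days were added after the data were seen. The script was tested on simulated data. The array count, 1 a day, limits precision, and no p-value was computed.

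Named miRNAs were the members, their numbered relatives, the nearest in pattern, and the lowest and highest D12 ratio of each list. Those named for detection at D12 and D16 alone were chosen after their values were seen. Members and lists were chosen with earlier results of these data known. Mature sequences came from RefSeq, where 3 of the 4 relatives matched.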

Additional observations from a re-analysis of the deposited data

How the results depend on the processing

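Detection rested on the threshold. Members detected at D4, D12 and D16 were 1, 2 and 2, but 0, 1 and 1 where 50% of a probe's spots had to be well above background. No share over all miRNAs is given for that rule. At 5 errors the members detected were 0, 0 and 0, and 27.7%, 32.8% and 28.9% of all detected miRNAs were also lost.

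For miR-143-3p the values over the D0 floor at D4, D12 and D16 (0.813, 1 and 0.883) became 0.191, 0.304 and 0.39 with 75th percentile scaling, 0.275, 0.431 and 0.553 with the 90th, and 0.106, 0.368 and 0.609 with quantile normalization. Spike-in scaling gave 0.446 at D4 and 0.581 at D12. They became 7.51, 9.39 and 10.4 with spot means, 6.12, 7.82 and 9.31 in the right part of the arrays, 3.28, 4.03 and 3.56 with the lowest detected D0 signal as floor, and 1.62, 2 and 1.76 with the floor of the detected probe. Normexp ratios were 1.15 at D4 and 1.2 at D16, held near 1 by its offset of 50. For miR-378a-3p the bounds at D12 and D16 (2.09 and 1.79) became 0.636 and 0.793 with the 75th percentile, 0.902 and 1.12 with the 90th, 0.853 and 1.04 with quantiles, 1.22 and 1.41 with spike-ins. Ratios of measured means were 3.85 and 4.17 over all spots and 2.78 and 3.28 in the right part. With D0 set to the lowest detected D0 signal, which is under its own probe sum and so gives no bound, the values were 8.55 and 7.33. Normexp ratios, again held near 1 by the offset, were 1.18 and 1.2, and removing the feature size gave 1.65 at D12. The cause of these moves, beyond the factor, floor or offset that each setting applies, was not tested.

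Members past 2-fold at D4, D12 and D16 were 0, 1 and 0. They were 1, 2 and 2 with spot means, in the right part and with the lowest D0 floor. No share over all miRNAs is given for these settings or for those that follow, so such counts do not set the members apart from the array. At D12 the count was 0 with the 4 scalings, without the feature size, and where 2-fold had to be passed by 2 errors. It was also 0 with normexp, but the offset of 50 exceeds every member spot (highest 30.5). Normexp could therefore not show a 2-fold change of the members. At D16 the count was 1 at a threshold of 1.5.

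Quantile normalization moved the D12 over D4 ratio of miR-143-3p to 3.46. No member was detected at D0, so the sum over probes detected on both days and the change of one member relative to another could not be given against D0. No paired analysis was possible because each day had 1 array. Detection was called probe by probe, so a signal could be detected under the limit summed over probes.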
